A study of Rattus norvegicus and Ovis aries with 113 samples.

Results

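Cortical projection neuron genes are 9 genes chosen by name: TBR1, FEZF2, BCL11B, CUX2, RORB, NEUROD2, NEUROD6, LMO4 and FOXP2. Each was looked up by its upper-cased symbol, and all 9 were found once among the 31304 genes of the sheep count table and once among the 38675 genes of the rat count table. They were followed through 10 sheep brain dissections, with whole rat brain as a reference and sperm and ovary as samples outside the nervous system.

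Projection neurons are the glutamatergic neurons of the cerebral cortex that send axons to other cortical areas or out of the cortex, and they lie in layers that differ in the targets they reach. Transcription factors mark these layers. TBR1, FEZF2, BCL11B and FOXP2 are known from deep layers, CUX2 and RORB from upper layers, and NEUROD2 and NEUROD6 from pyramidal neurons of most layers. LMO4, an adaptor with LIM domains and no DNA-binding domain of its own, is known from callosal neurons and from graded expression across cortical areas. Several of these factors also act elsewhere: BCL11B and FOXP2 in striatal medium spiny neurons, NEUROD2 in cerebellar granule cells and FOXP2 in Purkinje cells.

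The sheep (Ovis aries) were 5 post-pubertal males, numbered 687, 688, 690, 694 and 699, each with 10 dissections from the same hemisphere and 1 sperm sample. The dissections were frontal cortex (FC), motor cortex (MC), visual cortex (VC), prefrontal cortex (PC) and posterior parietal cortex (PPC), grouped here as the 5 neocortical dissections, and entorhinal cortex (EC), hippocampus (HC), basal ganglia (BG), cerebellum (CB) and pons. The rats (Rattus norvegicus) were Sprague Dawley animals, with whole brain and seminal fluid, labelled sperm, from 15 post-pubertal males and whole brain and ovary from 14 females. No treatment, mutation or transgene was given in any group, and no age was stated beyond puberty. The 50 sheep brain libraries held 46.7 to 72.4 M counts (median 57.0; M is 1000000) and the 29 rat brain libraries 38.2 to 119 M (median 52.6). Levels in brain are counts per 1000000 scaled by trimmed mean of M values (TMM) within each species, called CPM below, and they are not divided by gene length, so they are compared between samples and not between genes.

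For 2 of the genes, NEUROD2 and NEUROD6, the mean levels correlated at 0.93 over the 10 dissections, and the 250 bases upstream of the rat gene's start are shown to let their E-boxes be compared. E-boxes are the CANNTG sites that basic helix-loop-helix factors such as these bind, and CAGATG is the form preferred by the NEUROD family. Capitals mark every CANNTG match, and all CAGATG matches are among them. The sequences are those of RefSeq in the rat build GRCr8, read 5′ to 3′ on the strand of the gene, which is the minus strand for both. Neurod2 has its window at chr10:83824278-83824527 and Neurod6 at chr4:86180156-86180405, in both cases outside the gene.
Neurod2 upstream: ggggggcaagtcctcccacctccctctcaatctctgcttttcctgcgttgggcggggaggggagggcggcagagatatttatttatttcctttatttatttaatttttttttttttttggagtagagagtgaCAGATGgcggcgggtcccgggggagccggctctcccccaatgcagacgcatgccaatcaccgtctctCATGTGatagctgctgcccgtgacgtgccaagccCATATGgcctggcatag
Neurod6 upstream: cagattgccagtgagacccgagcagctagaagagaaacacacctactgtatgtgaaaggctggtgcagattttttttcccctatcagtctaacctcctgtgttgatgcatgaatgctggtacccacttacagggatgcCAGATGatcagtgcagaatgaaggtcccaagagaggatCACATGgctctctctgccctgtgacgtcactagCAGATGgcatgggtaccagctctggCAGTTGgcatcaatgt
The Neurod2 window held 3 CANNTG matches, of which 1 was CAGATG on this strand or the other. Neurod6 had 4, and 2 of them were CAGATG. Among all 33469 rat windows of the same length, 65.5% held a CANNTG and 14.0% a CAGATG on either strand, so matches of the first kind are common. A match is a description of the letters and not a bound site, and no sheep promoter was used here. Of the 9 genes, 7 had an entry in the promoter table. In GRCr8, Neurod2 lies on chromosome 10 from 83820092 to 83824277, Neurod6 on 4 from 86176909 to 86180155, Tbr1 on 3 from 66758805 to 66769626, Fezf2 on 15 from 15199045 to 15207982 and Bcl11b on 6 from 132598968 to 132692123. Cux2 lies on 12 from 40168402 to 40368303, Rorb on 1 from 225790216 to 225970973, Lmo4 on 2 from 235924574 to 235941609 and Foxp2 on 4 from 44099848 to 44677700. Placeholder genes overlap Bcl11b (2), Cux2 (2) and Rorb (1), and as the strand setting of the counting is not given in the sources used here, rat values of those 3 genes are uncertain.

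Before the results, each library was set against the mean profiles of the 10 dissections, leaving that library and the 9 genes out and using the 2000 most variable genes. All 5 basal ganglia, all 5 cerebellum and all 5 pons libraries were nearest to their own dissection, with correlations of 0.857 to 0.942, 0.973 to 0.981 and 0.787 to 0.949. In entorhinal cortex only 1 of 5 libraries was, that of sheep 687, at 0.501. The entorhinal profile it was set against was the mean of the libraries of sheep 688, 690, 694 and 699. The library of sheep 688 labelled entorhinal cortex correlated at 0.800 with motor cortex and at -0.36 with the other entorhinal libraries. Those of sheep 694 and 699 were nearest to hippocampus, at 0.724 and 0.816, and that of sheep 690 was nearest to posterior parietal cortex, at 0.380. The library of sheep 687 labelled motor cortex correlated at 0.766 with hippocampus and at -0.20 with motor cortex, and the hippocampus library of sheep 699 was nearest to entorhinal cortex, at 0.426. Within neocortex 24 of 25 libraries were nearest to a neocortical profile, but only 6 of 25 to that of their own dissection. Markers of striatum and cerebellum were at the labelled places: all 8 striatal markers were higher in basal ganglia than in neocortex and all 8 cerebellar markers higher in cerebellum. Of 6 hippocampal markers, 3 were higher in hippocampus than in neocortex and 1, WFS1, was lower, where 20.5% of all genes were called. Their summed level in the motor cortex library of sheep 687, 390 CPM, was the highest in neocortex (median 282). The comparisons with entorhinal cortex and hippocampus are given with and without these 6 libraries, and those in motor cortex with and without that of sheep 687. The entorhinal profile was built mostly from libraries that are among these 6. The selection is therefore partly circular, also for the hippocampus library of sheep 699, and cannot decide which libraries are entorhinal.

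**Figure D1:**
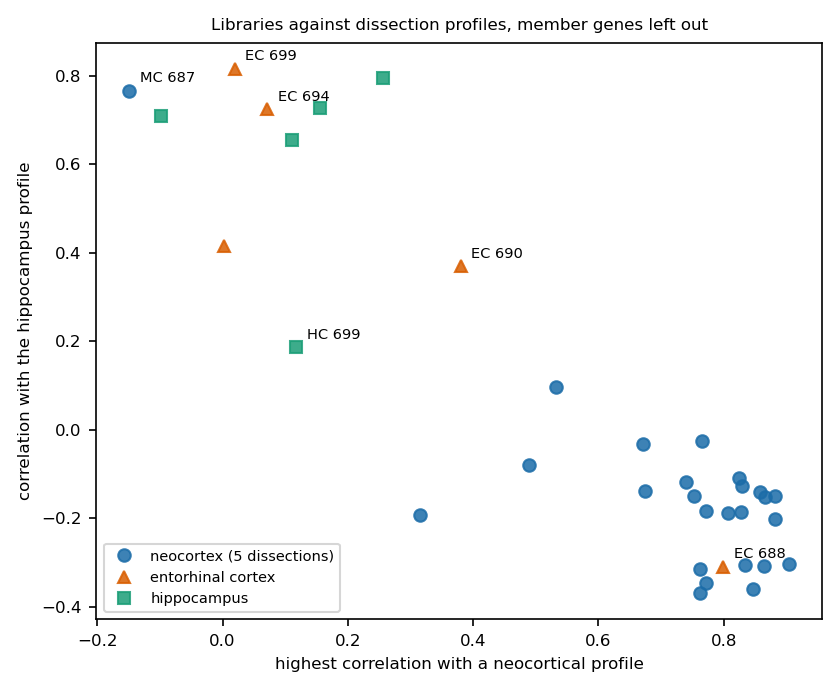
Each point is 1 library from neocortex (circles), entorhinal cortex (triangles) or hippocampus (squares); the x axis gives its highest correlation with a neocortical profile and the y axis its correlation with the hippocampus profile, both over 2000 genes without the 9 described here. The motor cortex library of sheep 687 sits at 0.766 on the y axis among the hippocampus libraries, and the entorhinal library of sheep 688 sits at 0.800 on the x axis among the neocortical ones.

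Set against the mean of the 5 neocortical dissections, 8 or 9 of the 9 genes were called against each of basal ganglia, cerebellum and pons, and 5 and 1 against hippocampus and entorhinal cortex. The exceptions were NEUROD6 in cerebellum and RORB in pons. Library ranges overlapped those of neocortex for TBR1, RORB, LMO4 and FOXP2 in basal ganglia, NEUROD6 in cerebellum and RORB and FOXP2 in pons. That of TBR1 rested on the motor cortex library of sheep 687, at 3.24 CPM. The next neocortical value was 14.0 CPM and the highest in basal ganglia 4.73. A gene was called at a Benjamini-Hochberg adjusted p below 0.05 over all 21147 genes tested by edgeR's quasi-likelihood test, and all 9 passed the filter on low counts. Against basal ganglia 9 of 9 were called, 7 higher and 2 lower in neocortex, where 27.5% of all genes were called (13.6% higher and 13.9% lower). Against cerebellum 8 of 9 were called (6 higher and 2 lower), with a background of 59% (30.4% higher, 28.6% lower). Against pons it was also 8 of 9 (7 higher and 1 lower), with a background of 52.3% (24.6% and 27.7%). With the mean log2 level of the oligodendrocyte markers as a covariate, the pons comparison called 7 of 9, and 3758 of all genes in place of 11060. All 8 of these markers were themselves lower in neocortex than in pons, so that fit cannot tell marker level and dissection apart. Against hippocampus 5 of 9 were called (3 higher and 2 lower), with 20.5% of all genes (9.4% higher and 11.1% lower), and against entorhinal cortex 1 of 9, lower in neocortex, with 5.53% (1.21% higher and 4.33% lower). The median log2 fold change of the 9 genes, neocortex minus the other dissection, was 4.06 for basal ganglia, 3.03 for cerebellum and 3.04 for pons, beside medians over all genes of -0.013, 0.034 and -0.040. For hippocampus it was -0.24 and for entorhinal cortex -0.17, beside -0.016 and -0.014. Each sheep gave several libraries and the fit has no term for sheep, so the p-values measure the spread between libraries. These are bulk samples, in which fewer cells of a type and less RNA per cell cannot be told apart.

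**Figure D2:**
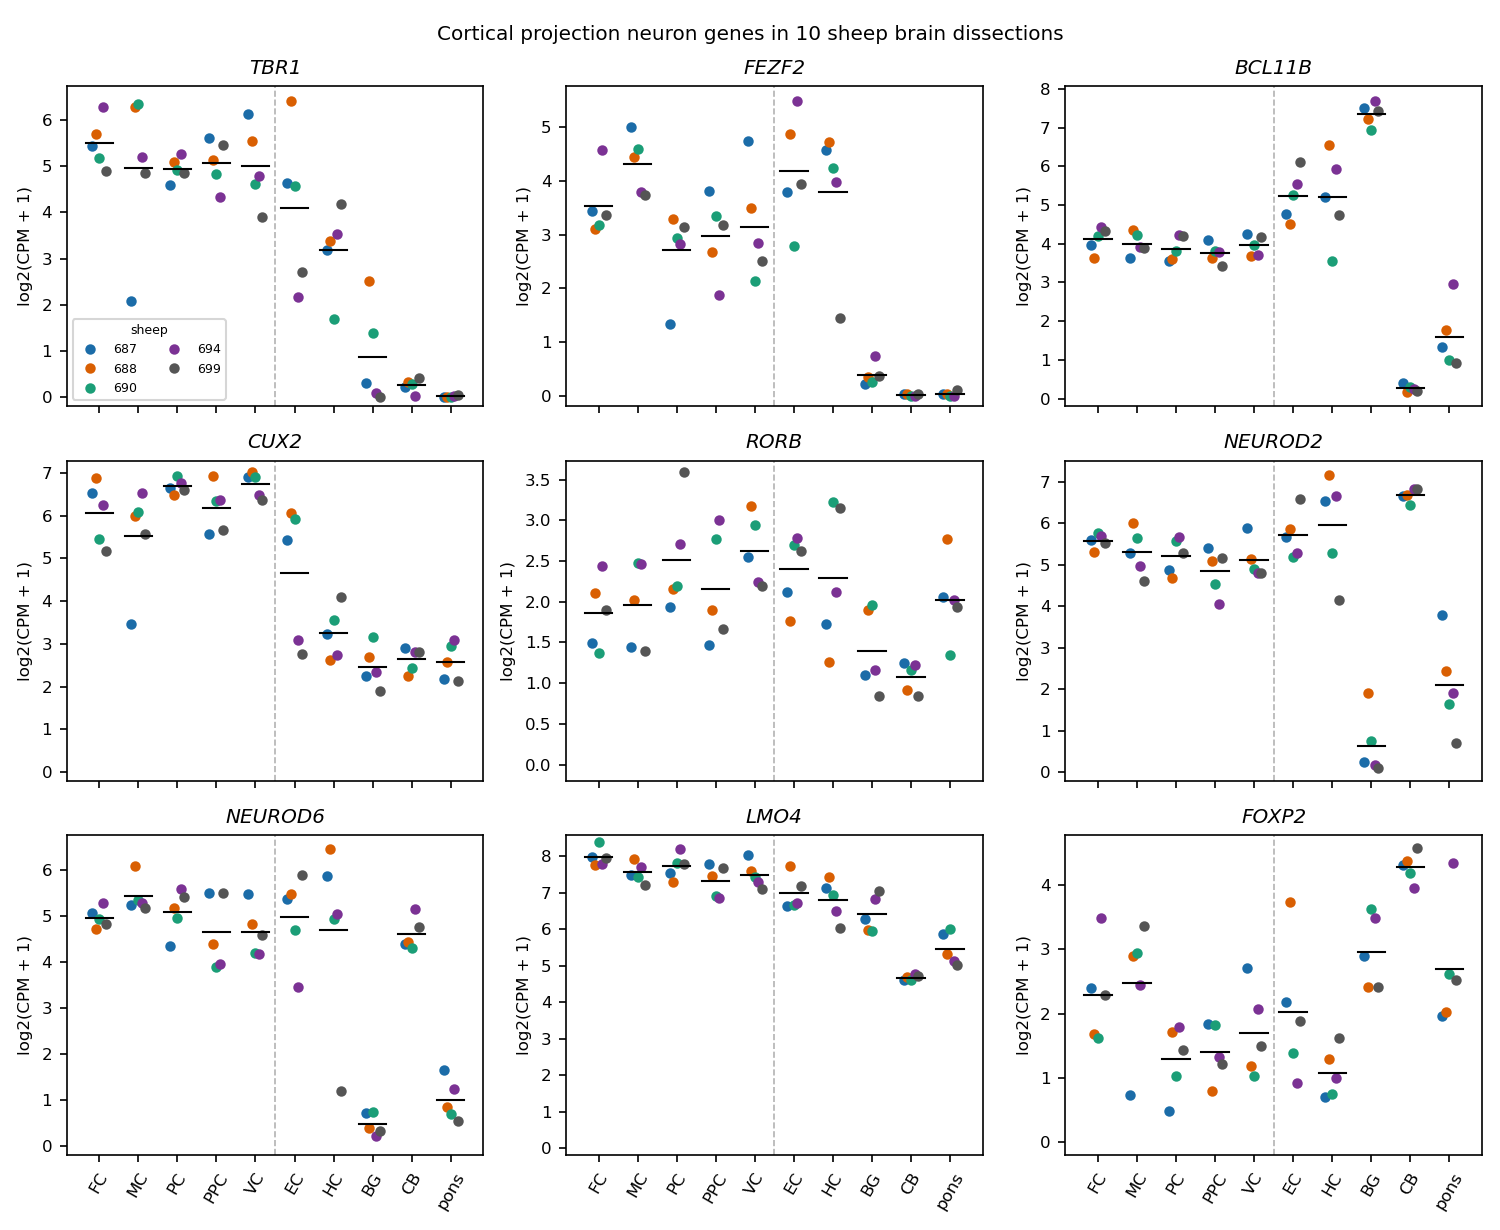
Each panel plots log2(CPM + 1) of 1 gene in the 10 sheep dissections, with 1 point per sheep in its colour and a bar at the mean of the 5 points; the dashed line parts the 5 neocortical dissections from the rest. TBR1 and FEZF2 lie near 0 in cerebellum and pons, BCL11B is highest in basal ganglia at a mean of 166 CPM and FOXP2 is highest in cerebellum at 18.6 CPM.

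TBR1, the T-box factor of layer VI and subplate neurons, ranged from 3.24 to 80.4 CPM (median 34.0) over the 25 neocortical libraries. The lowest of these was the motor cortex library of sheep 687, and the next lowest was 14.0. In cerebellum it was at 0.156, 0.259, 0.223, 0.0150 and 0.329 CPM in sheep 687, 688, 690, 694 and 699. Every cerebellar value was below every neocortical one, and the log2 fold change was 7.58 ± 0.93 (SE, edgeR adjusted p = 2.8e-09). In pons only 3 TBR1 counts were found in all 5 libraries together, a ratio of 3417 between neocortex and pons on plain totals, with an exact 95% interval from 1169 to 16568 that covers counting error only. Basal ganglia gave 0.228, 4.73, 1.61, 0.0606 and 0 CPM, and neocortex was higher by 4.80 ± 0.77 on the log2 scale (edgeR adjusted p = 3.3e-06). The high value belonged to sheep 688, whose basal ganglia library was also the highest of the 5 for SLC17A7, the vesicular glutamate transporter of cortical neurons, at 29.4 CPM beside 1.96 to 9.19 in the others; the part of this in the result was not tested. Hippocampus held 8.06, 9.37, 2.22, 10.6 and 17.1 CPM, all but 1 of them inside the neocortical range. Without the motor cortex library of sheep 687 that range starts at 14.0 CPM, and only the 17.1 of sheep 699 lay inside it. With all libraries, neocortex was called higher than hippocampus by 2.00 ± 0.62 (edgeR adjusted p = 0.018). That call was lost without sheep 690 (1.74, edgeR adjusted p = 0.12) and held without the 6 libraries nearest another class (2.39, edgeR adjusted p = 0.0025). In entorhinal cortex the values were 23.8, 84.6, 22.9, 3.48 and 5.51 CPM. Sheep 688 was above all 25 neocortical libraries, sheep 694 and 699 were below 24 of them, and the difference did not pass the test (0.43 ± 0.55, edgeR adjusted p = 0.68).

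FEZF2, a zinc finger factor needed for the identity of layer V neurons that project below the cortex, ranged from 1.53 to 31.1 CPM (median 8.77) in neocortex. It was all but absent from cerebellum, with 3 counts in the 5 libraries and a ratio of 1022 (exact 95% interval 350 to 4958, counting error only), and from pons, with 6 counts. Basal ganglia held 0.160, 0.275, 0.198, 0.666 and 0.288 CPM. None of these 15 libraries reached the lowest neocortical value, and neocortex exceeded basal ganglia by 4.99 ± 0.61 on the log2 scale (edgeR adjusted p = 1.2e-08). Hippocampus, at 22.9, 25.4, 17.9, 14.7 and 1.72 CPM, and entorhinal cortex, at 12.9, 28.4, 5.91, 44.2 and 14.4 CPM, overlapped neocortex. Their means, 16.5 and 21.2 CPM, were above the neocortical mean of 11.1, but neither difference passed the test (edgeR adjusted p = 0.19 and 0.083). That from entorhinal cortex was called without sheep 687 (-1.37, edgeR adjusted p = 0.033). Sheep 699 gave the single low hippocampal value, in the library nearest to the entorhinal profile, and without the 6 libraries the difference from hippocampus was called at -1.03 (edgeR adjusted p = 0.029).

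BCL11B, the zinc finger factor also called CTIP2, had a different order. It was highest in basal ganglia, at 183, 148, 121, 207 and 173 CPM, where neocortex held 9.70 to 20.7 CPM (median 14.2). The ranges were far apart, and neocortex was lower by 3.51 on the log2 scale (SE 0.24, edgeR adjusted p = 6.8e-16), that is 11.4-fold. Hippocampus followed at 36.0, 92.5, 10.8, 59.8 and 25.9 CPM and entorhinal cortex at 26.1, 22.0, 37.3, 45.7 and 68.6 CPM. All 5 entorhinal libraries and 4 of 5 hippocampal ones lay above every neocortical library. Neocortex was below hippocampus, by a log2 difference of -1.62 ± 0.26 (edgeR adjusted p = 2.3e-05) and below entorhinal cortex with -1.45 ± 0.26 (edgeR adjusted p = 2.8e-04). The entorhinal difference was the only call in that comparison, and with the 6 libraries left out, which leaves 1 entorhinal library assumed to vary like the other groups, it was -0.82 (edgeR adjusted p = 0.76). Pons, at 1.54, 2.43, 0.986, 6.82 and 0.886 CPM, and cerebellum, at 0.122 to 0.313 CPM, were below every neocortical library, by 2.52 ± 0.36 (edgeR adjusted p = 1.2e-07) and 6.19 ± 0.48 (edgeR adjusted p = 7.8e-15) on the log2 scale.

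FOXP2, a forkhead factor of layer VI neurons, was lower in neocortex than in 3 of the other dissections. Cerebellum held 18.9, 19.7, 17.3, 14.4 and 22.8 CPM, all above the highest of the 25 neocortical libraries, which ranged from 0.399 to 10.2 CPM (median 2.29). The log2 fold change against cerebellum was -2.72 ± 0.38 (edgeR adjusted p = 5.9e-08). Basal ganglia held 6.46, 4.31, 11.4, 10.2 and 4.32 CPM and overlapped neocortex, at a difference of -1.38 ± 0.41 on the log2 scale (edgeR adjusted p = 0.0096) that was no longer called without sheep 690 (-1.12, edgeR adjusted p = 0.10). In pons the values were 2.90, 3.08, 5.11, 19.3 and 4.77 CPM. The one of sheep 694 stood apart, and the call against pons (-1.32 ± 0.41, edgeR adjusted p = 0.0068) was lost without that sheep (-0.64, edgeR adjusted p = 0.24). Its pons library also had the lowest summed level of the 8 oligodendrocyte markers among the pons libraries, 18770 CPM beside 33858 to 94271, with no marker of the list at 0 in all 5. All 8 markers were lower in neocortex than in pons, and their neocortical sums ran from 1442 to 34879 CPM. The covariate used in the fit was not this sum but the mean log2 level of the 8 markers, on plain library totals. With it the FOXP2 difference was -0.59 (edgeR adjusted p = 0.56). The median sum of the markers was 4458 CPM in neocortex and 56305 in pons, so their level goes with the dissection. This fit cannot tell the 2 apart, and the part of the markers in the FOXP2 difference was not tested. Hippocampus, at 0.626 to 2.08 CPM, gave the lowest mean of the 10 dissections, with a difference of 1.27 ± 0.51 that missed the threshold (edgeR adjusted p = 0.069) and passed it without the motor cortex library of sheep 687 (1.33, edgeR adjusted p = 0.039), with the covariate (1.54, edgeR adjusted p = 0.039) and with DESeq2 (1.28, adjusted p = 0.027).

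CUX2, the homeobox factor of layers II to IV, was the gene for which neocortex stood above all 4 of hippocampus, basal ganglia, cerebellum and pons with log2 fold changes over 3. Neocortex ranged from 10.1 to 129.9 CPM (median 88.3), and the lowest value, from the motor cortex library of sheep 687, was followed by 35.1. Basal ganglia held 2.74 to 8.02 CPM, cerebellum 3.75 to 6.47 and pons 3.42 to 7.54. These 3 ranges overlapped each other, and none reached neocortex. The log2 fold changes were 4.06 ± 0.47, 3.91 ± 0.47 and 3.94 ± 0.47 (edgeR adjusted p = 3.3e-09, 1.3e-09 and 2.3e-09). Hippocampus, at 8.42, 5.16, 10.8, 5.74 and 16.1 CPM, was lower than neocortex by 3.12 ± 0.44 (edgeR adjusted p = 3.4e-06). Entorhinal cortex split, with 42.3, 66.1 and 59.2 CPM in sheep 687, 688 and 690 and 7.56 and 5.75 CPM in sheep 694 and 699. The latter are the libraries nearest to hippocampus. The difference from neocortex was 1.15 ± 0.38 (edgeR adjusted p = 0.062), and it was called without the motor cortex library of sheep 687 (1.20, edgeR adjusted p = 0.022), with sheep as a block (1.24, edgeR adjusted p = 0.038), without sheep 688 (1.37, edgeR adjusted p = 0.043) and with DESeq2 (1.15, adjusted p = 0.021).

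RORB, a nuclear receptor of layer IV, was called against basal ganglia and cerebellum only. Neocortex ranged from 1.59 to 11.1 CPM (median 3.57), entorhinal cortex from 2.40 to 5.87, hippocampus from 1.39 to 8.32 and pons from 1.55 to 5.82. None of these 3 differences passed the test, with log2 fold changes of -0.17 (95% interval -0.86 to 0.51), -0.24 (-0.92 to 0.44) and 0.26 (-0.45 to 0.97). Cerebellum, at 1.38, 0.884, 1.23, 1.33 and 0.799 CPM, lay below every neocortical library (1.81 ± 0.40, edgeR adjusted p = 1.4e-04). Basal ganglia, at 1.14, 2.73, 2.89, 1.23 and 0.792 CPM, overlapped neocortex and was lower (1.16 ± 0.38, edgeR adjusted p = 0.018), a call lost without sheep 694 (0.93, edgeR adjusted p = 0.13) or 699 (1.01, edgeR adjusted p = 0.061).

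LMO4 was called against every dissection but entorhinal cortex, with smaller folds than CUX2. Neocortex held 115 to 336 CPM (median 203). Cerebellum was at 23.3, 24.8, 23.4, 26.2 and 25.1 CPM, the narrowest range of this gene, and 8.15-fold lower (log2 3.03 ± 0.24, edgeR adjusted p = 1.2e-14). Pons, at 31.4 to 63.9 CPM, was also below all neocortical libraries (2.15 ± 0.22, edgeR adjusted p = 9.5e-11). Basal ganglia, at 76.3, 62.6, 61.2, 112.7 and 131 CPM, and hippocampus, at 139, 171, 123, 90.6 and 64.6 CPM, overlapped neocortex at its lower end. Their log2 fold changes were 1.17 ± 0.21 (edgeR adjusted p = 1.8e-05) and 0.77 ± 0.20 (edgeR adjusted p = 0.0050). In entorhinal cortex the values were 98.5, 213, 101, 105 and 146 CPM, the highest again in sheep 688, and the difference was 0.59 ± 0.20 (edgeR adjusted p = 0.064), called without that sheep (0.83, edgeR adjusted p = 0.012) and with DESeq2 (0.60, adjusted p = 0.036).

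NEUROD2 and NEUROD6, the pair of helix-loop-helix factors whose upstream E-boxes are shown above, shared a low level in basal ganglia and pons. NEUROD2 was at 0.183, 2.77, 0.705, 0.141 and 0.0720 CPM in basal ganglia and NEUROD6 at 0.639, 0.312, 0.683, 0.161 and 0.264 CPM. In neocortex they ranged from 15.6 to 63.8 and from 13.9 to 67.1 CPM (medians 37.9 and 32.4). Neither overlapped, and the log2 fold changes were 5.55 ± 0.62 (edgeR adjusted p = 1.2e-09) and 6.27 ± 0.62 (edgeR adjusted p = 4.1e-11). In pons NEUROD2 was at 12.9, 4.48, 2.15, 2.78 and 0.633 CPM and NEUROD6 at 2.16, 0.811, 0.621, 1.36 and 0.452 CPM. Both were highest in sheep 687, whose pons library also held the most SLC17A7, 103 CPM beside 4.18 to 31.5. The part of this in the pons values was not tested. Against pons the fold changes were 3.04 ± 0.51 (edgeR adjusted p = 3.1e-06) and 4.88 ± 0.55 (edgeR adjusted p = 7.3e-10).

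Cerebellum set the pair apart. NEUROD2 was highest there, at 100.1, 102.3, 85.1, 112 and 112 CPM, above every neocortical library (-1.45 ± 0.36, edgeR adjusted p = 7.0e-04). NEUROD6, at 20.1, 20.6, 18.7, 34.4 and 26.0 CPM, lay inside the neocortical range (0.40 ± 0.39, edgeR adjusted p = 0.38). In hippocampus NEUROD2 was at 92.5, 142, 37.8, 99.3 and 16.8 CPM and NEUROD6 at 57.8, 86.3, 29.4, 31.8 and 1.28 CPM. The lowest of both was the library of sheep 699. NEUROD2 was called lower in neocortex than in hippocampus (-1.05 ± 0.37, edgeR adjusted p = 0.040), but not with sheep as a block (-0.93, edgeR adjusted p = 0.060), with DESeq2 (adjusted p = 0.063), with the oligodendrocyte covariate (edgeR adjusted p = 0.13) or without any 1 of sheep 687, 688, 690 and 694 (edgeR adjusted p = 0.071, 0.21, 0.066 and 0.17). Without the 6 libraries it was -1.30 (edgeR adjusted p = 0.014). For NEUROD6 the difference was -0.38 ± 0.37 (edgeR adjusted p = 0.49). Entorhinal cortex, at 49.8, 56.7, 35.3, 38.1 and 95.7 CPM of NEUROD2 and 40.6, 43.6, 24.9, 9.92 and 58.4 CPM of NEUROD6, gave differences from neocortex that did not pass the test (edgeR adjusted p = 0.41 and 0.84).

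Without the 6 libraries nearest another class, 1 entorhinal library remained, that of sheep 687. It had been matched to a profile made only of entorhinal libraries that were then left out. The selection therefore does not show that the library of sheep 687 is the entorhinal one. The log2 differences, neocortex minus entorhinal cortex, were then 0.73 for TBR1, -0.38 for FEZF2, -0.82 for BCL11B, 0.98 for CUX2, 0.27 for RORB, -0.40 for NEUROD2, -0.35 for NEUROD6, 1.03 for LMO4 and -0.28 for FOXP2. LMO4 alone had an unadjusted p below 0.05 (0.015, edgeR adjusted p = 0.30). The sign was the same with all libraries for 8 of the 9, all but RORB. Against the 4 hippocampal libraries left, BCL11B (-1.75, edgeR adjusted p = 6.9e-06), CUX2 (3.47, edgeR adjusted p = 2.2e-10) and LMO4 (0.62, edgeR adjusted p = 0.025) were called as before, and FOXP2 was called as well (1.65, edgeR adjusted p = 0.013). NEUROD6 (-0.68, edgeR adjusted p = 0.090) and RORB (0.06, edgeR adjusted p = 0.94) were not.

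**Figure D3:**
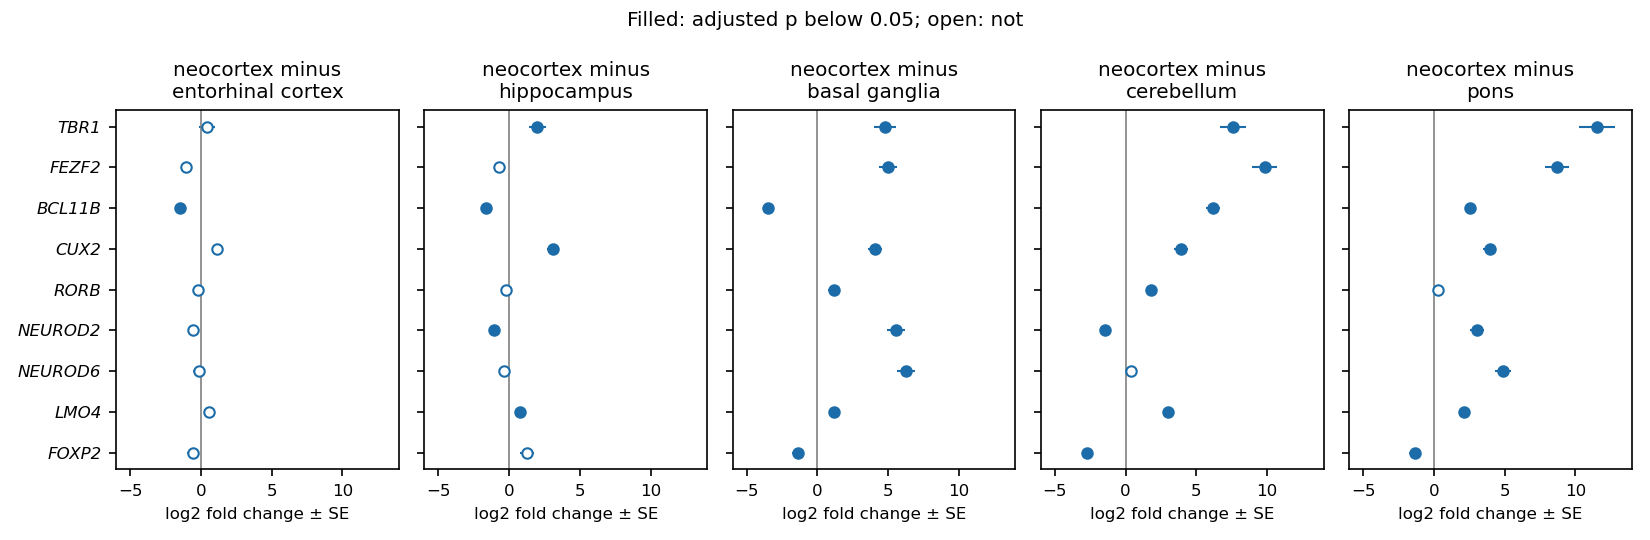
Each panel gives, for 1 comparison, the log2 fold change (x axis) of the 9 genes (y axis) as the mean of the 5 neocortical dissections minus the other dissection, with a bar of 1 SE where it is wider than the point; filled points passed an adjusted p of 0.05. BCL11B lies left of 0 against entorhinal cortex, hippocampus and basal ganglia and right of it against cerebellum (6.19) and pons (2.52), and FEZF2 lies farthest right against cerebellum at 9.81, a fitted value that depends on the prior count because FEZF2 had 3 counts there.

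The order of the 10 means differed from gene to gene, and neighbouring dissections mostly overlapped. For TBR1 the means fell from frontal cortex (46.8 CPM) through motor, visual, posterior parietal, prefrontal and entorhinal cortex to hippocampus, basal ganglia, cerebellum and pons, and each overlapped the next. FEZF2 ran from entorhinal cortex (21.2 CPM) and motor cortex (20.1 CPM) through hippocampus and the other neocortical dissections, with the first gap below prefrontal cortex (6.18 CPM). BCL11B had gaps between basal ganglia and hippocampus, between entorhinal cortex and the 5 neocortical dissections, and below those. CUX2 fell from visual cortex (108 CPM) and prefrontal cortex (102 CPM) to basal ganglia (4.80 CPM) with no gap between neighbours. NEUROD2 and NEUROD6 had a gap only above pons, LMO4 only above cerebellum and FOXP2 only below cerebellum. RORB, from 5.37 CPM in visual cortex to 1.12 in cerebellum, had none.

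Other genes of the same neurons, from lists of upper-layer, deep-layer and forebrain glutamatergic genes, were called against the same dissections in shares that varied. Of 10 other upper-layer genes, 6 were higher and 1 lower in neocortex than in basal ganglia, 7 higher and 1 lower than in cerebellum and in pons, 5 higher than in hippocampus, and 2 higher and 1 lower than in entorhinal cortex; their medians were 0.83, 1.64, 0.86, 0.58 and 0.53, beside medians over all genes within 0.04 of 0 and shares of all genes called of 27.5%, 59%, 52.3%, 20.5% and 5.53%. These shares are also the background of the counts of called genes that follow, and the deep-layer count in pons is close to its share. The lower gene against basal ganglia was CALB1, which encodes the calcium buffer calbindin and which is also made by striatal and Purkinje neurons, at 0.665 CPM in neocortex and 88.6 in basal ganglia. Of 12 deep-layer genes, 4 were higher and 5 lower than in basal ganglia, 8 and 4 than in cerebellum, 5 and 1 than in pons, 4 and 1 than in hippocampus, and edgeR called none against entorhinal cortex, where 3 had an unadjusted p below 0.05; their medians were -0.44, 1.56, 0.30, 0.02 and -0.24. PCP4, a calmodulin-binding protein, averaged 45.5 CPM in neocortex, 10.1 in hippocampus and 596 in basal ganglia, and SYT6, a synaptotagmin, 7.32 CPM in neocortex and 63.2 in basal ganglia.

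Of 10 forebrain glutamatergic genes, 7 were higher and none lower than in basal ganglia, 7 higher and 2 lower than in cerebellum, 8 higher and none lower than in pons, 2 and 2 in hippocampus, and 1 was lower than in entorhinal cortex, with medians of 3.24, 3.82, 4.52, 0.06 and 0.21. NEUROD1, a relative of NEUROD2 known from cerebellar granule cells, was at 3.09 CPM in neocortex and 240 in cerebellum, and BHLHE22 was lower in neocortex (21.1 CPM) than in entorhinal cortex (57.3 CPM, log2 -1.47 ± 0.34, edgeR adjusted p = 0.0052) and hippocampus (87.5 CPM, -2.08 ± 0.33, edgeR adjusted p = 1.8e-05). Of 10 genes graded over cortical areas in development, 4 were higher and 1 lower than in basal ganglia, 6 and 2 than in cerebellum, 7 and none than in pons, 2 and 3 than in hippocampus, and none and 2 than in entorhinal cortex. Markers of other cells moved as well. Choroid plexus markers (4 of 5 listed were in the table) were higher in hippocampus than in neocortex in 4 of 4 cases and in entorhinal cortex in 2 of 4; their summed level was 58.0 to 1401 CPM in hippocampus, 3.71 to 246 in entorhinal cortex and 0.995 to 788 in neocortex, with the top value in the motor cortex library of sheep 687. Of the 7 astrocyte markers, 4 were lower and none higher in neocortex than in entorhinal cortex and hippocampus, and 4 were lower and 2 higher than in pons, with sums of 3561 to 10743 CPM in neocortex, 3913 to 13430 in entorhinal cortex and 7181 to 11882 in hippocampus. Their part in the differences of the 9 genes was not tested.

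Between the 5 neocortical dissections, no member passed the test. The 25 neocortical libraries were fitted alone, over 20045 genes, and each area was compared with the average of the remaining 4. None of the 9 genes was called for frontal, prefrontal, posterior parietal or visual cortex, where 0% of all genes were called, nor for motor cortex, where 0.175% were. At an unadjusted p below 0.05 there were 1 of the 9 in frontal, 4 in motor and 2 in prefrontal cortex and none in the other 2 areas, and DESeq2 called none of the 9 in any of the 5. A test of any difference among the 5 called none of the 9 and 0% of all genes, and DESeq2 on the same contrast called 244 genes and none of the 9. The lowest unadjusted p in that test were 0.014 for FOXP2 and 0.021 for FEZF2 (edgeR adjusted p = 0.34 and 0.36). Over the 10 pairs of dissections, 16 of 90 tests of the 9 genes had an unadjusted p below 0.05, and the lowest edgeR adjusted p was 0.12. Shares of all genes at an unadjusted p below 0.05 are not given in this text. Counts at that threshold therefore have no background beside them and are not read as a result. The 95% intervals were wide, reaching from -2.06 to 2.09 on the log2 scale over the 5 comparisons, so a p above the threshold does not show that the areas were alike.

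FEZF2 in motor cortex had the lowest adjusted p of the 9 genes in these 5 comparisons. It was at 31.1, 20.9, 23.3, 12.8 and 12.4 CPM in motor cortex, against 9.83, 7.66, 8.12, 22.8 and 9.38 in frontal cortex and 1.53, 8.77, 6.65, 6.10 and 7.85 in prefrontal cortex. Motor cortex exceeded the mean of the same sheep's other 4 dissections in 5 of 5 sheep and was highest in 4. Both counts include the library of sheep 687, at 31.1 CPM, which was nearest to the hippocampus profile. The log2 fold change was 1.22 ± 0.36 (unadjusted edgeR p = 0.0027, adjusted p = 0.17), and 1.01 without the library of sheep 687 (edgeR adjusted p = 0.50). Prefrontal and posterior parietal cortex each lay below the other 4 in 5 of 5 sheep. The log2 difference was -0.90 ± 0.42 for prefrontal cortex (unadjusted edgeR p = 0.044, adjusted p = 1.0). For posterior parietal cortex it was -0.53 ± 0.41 (edgeR adjusted p = 0.52). The share of all genes with such a count of sheep was not determined.

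FOXP2 shared this direction. Motor cortex held 0.664, 6.48, 6.73, 4.43 and 9.33 CPM and prefrontal cortex 0.399, 2.29, 1.04, 2.48 and 1.70. The first was above the other 4 dissections in 4 of 5 sheep, all but 687 (1.21 ± 0.42, unadjusted edgeR p = 0.0086, adjusted p = 0.23; 1.496 without that library, edgeR adjusted p = 0.30), and the second below them in 5 of 5 (-1.03 ± 0.49, unadjusted edgeR p = 0.047, adjusted p = 1.0). Posterior parietal cortex was also below the other 4 in 5 of 5 sheep (-0.88 ± 0.49, edgeR adjusted p = 0.35). Over the 24 libraries without the motor cortex library of sheep 687, FEZF2 and FOXP2 correlated at 0.82 in log2(CPM + 1), as did TBR1 and FEZF2. With that library the correlations were 0.61 and 0.25. NEUROD6 was likewise above the other 4 in motor cortex in 5 of 5 sheep, again with the library of sheep 687 among them. It was at 36.9, 67.1, 39.8, 37.8 and 35.1 CPM (0.56 ± 0.24, edgeR adjusted p = 0.34). Without sheep 687's library the difference was 0.62 (edgeR adjusted p = 0.50).

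Among the upper-layer genes, CUX2 in motor cortex was at 10.1, 62.2, 66.9, 90.7 and 46.4 CPM, below the other 4 dissections in 4 of 5 sheep (-0.67 ± 0.31, edgeR adjusted p = 0.36; -0.41 without sheep 687's library). In visual cortex it was at 119, 129.9, 119, 88.7 and 81.8 CPM, above them in 4 of 5. Prefrontal cortex was likewise above the other 4 in 4 of 5 sheep. It was the highest dissection in 3 sheep and visual cortex in 2. RORB was below the other 4 in frontal cortex in 5 of 5 sheep, at 1.82, 3.31, 1.59, 4.44 and 2.72 CPM. Its visual cortex values were 4.83, 8.06, 6.68, 3.71 and 3.57, above the other 4 in 3 of 5 sheep, as was prefrontal cortex. None of these passed the test.

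LMO4 in frontal cortex was at 250.3, 217, 336, 222 and 249.8 CPM, above the other 4 dissections in 5 of 5 sheep (0.44 ± 0.16, unadjusted edgeR p = 0.011, adjusted p = 0.89). SLC17A7 was above them in frontal cortex in 5 of 5 sheep as well, and as a ratio to SLC17A7 of the same library the mean LMO4 difference came to 0.07. Mean SLC17A7 was 547 CPM in frontal and 548 in motor cortex, where it was above the other 4 in 3 of 5 sheep. Ratios for the differences in motor and prefrontal cortex are not reported here. BCL11B, TBR1, RORB and NEUROD2 had no area with an unadjusted p below 0.05. BCL11B varied least among the 25 libraries, with a coefficient of variation of 21.5%, and FOXP2 most, with 82.6%.

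**Figure D4:**
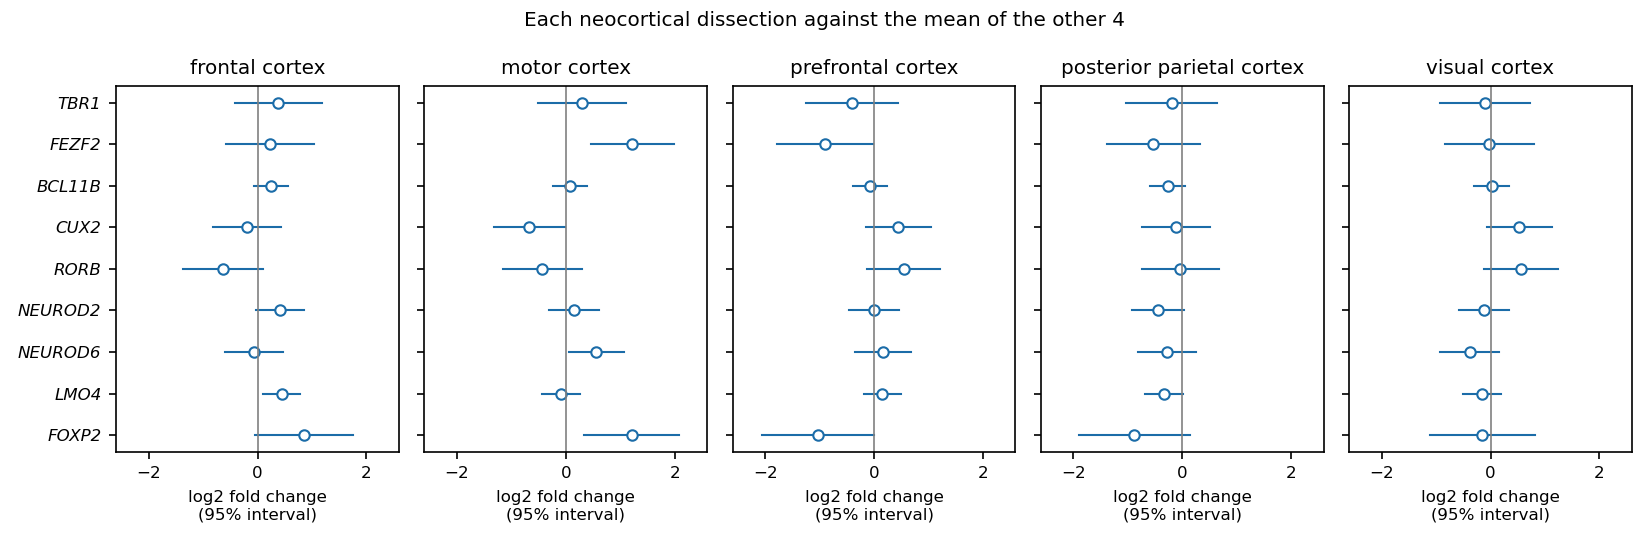
Each panel compares 1 neocortical dissection with the average of the remaining 4 and gives the log2 fold change (x axis) with its 95% interval for the 9 genes (y axis); every point is open because none passed an adjusted p of 0.05. The intervals of FEZF2 and FOXP2 lie right of 0 in motor cortex (1.22 and 1.21) and left of it in prefrontal cortex (-0.90 and -1.03).

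The spread within neocortex was split into parts that go with area, with animal and with neither. In a layout of 5 dissections by 5 sheep, the dissection took 40.6% of the sum of squares of FEZF2, 35.3% of LMO4, 35.2% of FOXP2 and 34.4% of CUX2, but 5.84% of TBR1. The sheep took 4.36% to 20.2%, the highest for RORB, and 46.6% (CUX2) to 82.9% (TBR1) was left over. By degrees of freedom alone, 16.7% would go to the dissection, 16.7% to the sheep and 66.7% would be left over. The dissection's part was above its share for all but TBR1, and no test was made. For TBR1 the motor cortex library of sheep 687 is part of this remainder. NEUROD2 followed SLC17A7 over the 25 libraries at a correlation of 0.90, and its SD of 0.50 in log2 CPM became 0.22 as a ratio to SLC17A7. For CUX2 and RORB the correlation was 0.0049 and -0.06, and the SD was larger as a ratio (0.95 for both) than alone (0.80 and 0.76). Without the motor cortex library of sheep 687, the SD of CUX2 was 0.54 alone and 0.71 as a ratio. TBR1 then correlated with SLC17A7 at 0.74, beside 0.41 with that library. Its SD without that library was 0.64 alone and 0.44 as a ratio. NEUROD2 also followed LMO4 over the 25 libraries, at 0.86. These correlations are descriptions over libraries that share 5 sheep.

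Over the 10 dissection means NEUROD2 and NEUROD6 correlated at 0.93 in log2(CPM + 1), TBR1 with CUX2 and with LMO4 at 0.93, and RORB with FOXP2 at -0.88. Each correlation has 10 points that share sheep, and the points span cortex as well as basal ganglia, cerebellum and pons. Among 10618 other genes that reached 10 CPM in at least 1 dissection, TBR1 was most like VIP (0.993), a neuropeptide of interneurons, CCK (0.989), a neuropeptide, and LINGO1 (0.986). The 3 genes most like CUX2 included DTX4 (0.986) and OVOL2 (0.983), and NEUROD6 most like SLC17A7 (0.992), NALF1 (0.981) and C1H1orf226 (0.979). For FEZF2 the nearest were RSPO3 (0.979), a secreted activator of WNT signalling, CREB3L1 (0.969) and NPY2R (0.969). For BCL11B they were TRAIP (0.989), TMEM263 (0.977) and SOLD1 (0.976), and for LMO4 MED10 (0.985), CLBA1 (0.984) and RBP4 (0.984). RORB was nearest to NIP7 (0.955), CARMIL1 (0.947) and ALDH6A1 (0.944), NEUROD2 to GPR22, GLMN (both 0.969) and RCCD1 (0.968), and the 3 nearest to FOXP2 included ARFGAP2 (0.960) and EIF4A3 (0.948).

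In whole rat brain all 9 genes had counts in all 29 libraries, and none passed the test between males and females. Over 20570 genes tested, edgeR called 0.18% between the sexes and none of the 9, of which 1 had an unadjusted p below 0.05; DESeq2 called none of the 9 either. The log2 fold changes, male minus female, ran from -0.06 to 0.18. The largest was that of NEUROD2, at 44.7 to 88.8 CPM in males (median 64.3, n = 15) and 43.4 to 70.6 CPM in females (median 57.4, n = 14). These ranges overlapped widely (0.18 ± 0.08, unadjusted edgeR p = 0.028, adjusted p = 0.42). For the other 8 genes the 95% intervals stayed within -0.26 and 0.25. The female rat 1 and male rat 4 libraries had 86.9% and 83.1% of their counts in ribosomal RNA entries, and without them the NEUROD2 difference was 0.14 (edgeR adjusted p = 0.46).

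As a reference for level, the rat brain means over 29 libraries stood beside the means of the 5 sheep, each averaged over its 10 dissections. TBR1 averaged 70.8 CPM ± 12.8 (SD, n = 29) in rat and 23.1 ± 6.51 (SD, n = 5) in sheep. FOXP2 averaged 12.0 CPM ± 2.25 in rat and 5.43 ± 0.83 in sheep, and BCL11B 47.6 ± 11.3 and 32.7 ± 5.44. On this scale CUX2 was at 48.7 CPM in rat and 47.4 in sheep, RORB at 4.03 and 3.57 and FEZF2 at 11.8 and 9.36. NEUROD2 (61.0 and 43.1) and NEUROD6 (39.3 and 26.4) were higher in rat, and LMO4 was at 116 CPM in rat and 142 in sheep. The scaling was done within each species, and these levels depend on it. On plain library totals, without the 2 rat libraries rich in ribosomal RNA, CUX2 averaged 59.4 CPM in rat and 46.5 in sheep. FEZF2 then averaged 14.2 and 9.66, and LMO4 138 and 141. How close the levels of the species were is therefore not read as a result. Sheep dissections are weighted equally and not by volume, and species, extraction and library kit cannot be told apart, so no test was made.

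**Figure D5:**
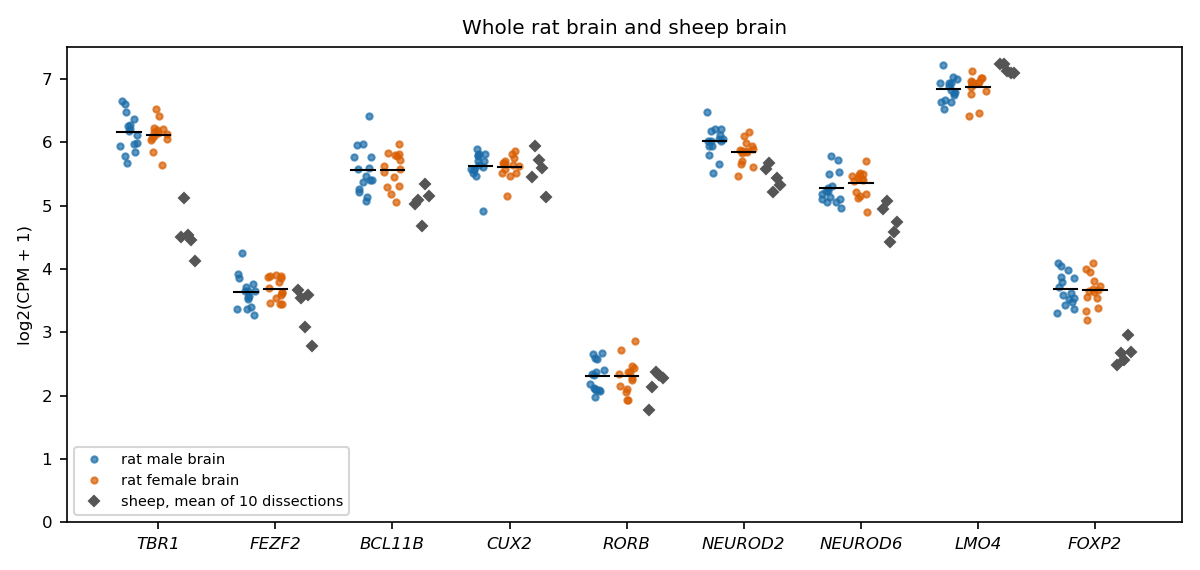
The plot gives log2(CPM + 1) of the 9 genes in 15 male and 14 female whole rat brains (points, with a bar at each mean) and in 5 sheep as the mean of 10 dissections (diamonds). Male and female points overlap for every gene, with NEUROD2 medians of 64.3 and 57.4 CPM, and the sheep diamonds lie below the rat points for TBR1 and FOXP2.

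Outside the brain the levels are counts per 1000000 of the plain library total. NEUROD6 had no count in any of 15 rat and 5 sheep sperm libraries, and FEZF2 and RORB none in sheep sperm. LMO4 was at 26.4 to 179 CPM (median 106) in rat sperm and 83.3 to 114 CPM (median 101) in ovary, but 1.26 to 5.08 CPM in sheep sperm. FOXP2 was at 5.78 to 17.3 CPM (median 10.4) in ovary and at most 0.702 in rat sperm. CUX2 held 1.89 to 7.31 CPM in rat sperm and 2.38 to 6.20 in ovary. TBR1 had a median of 0.021 CPM in rat sperm, with 2 libraries at 7.55 and 11.6 CPM. BCL11B was at 1.05 to 4.18 CPM in ovary and at most 3.44 in rat sperm. No test was made against these samples.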

How the data were processed

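RNA was measured by stranded mRNA sequencing in 55 sheep and 58 rat libraries. The authors trimmed reads with Trimmomatic 0.39, aligned them with STAR 2.7.5a to ARS-UI_Ramb_v3.0 (sheep) or GRCr8 (rat) and counted them with Rsubread 2.20.0, per the labels and the series' design text. The deposited values are raw counts per gene and library, not normalized or pooled. Whether counting used strand, and what was done with multi-mapping reads, is not given in the sources used here.

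The quasi-likelihood test of edgeR 4.0.16 in R 4.3.3 was run on the counts, with TMM factors, filterByExpr and a prior count of 0.125. The SE is the absolute log2 fold change over the square root of F. Neocortex was set against each other dissection in a fit on 50 libraries, neocortical areas were compared on 25 and rat sexes on 29. The fits have no block, since the series' design text describes none. The sample titles number each dissection by sheep, which pairs them by animal; the median correlation of deviations from the dissection means was 0.206 within and -0.047 between sheep, and the block by sheep is an alternative beside DESeq2 1.42.0, other scalings and left-out sheep. The scripts were tested on simulated data. No 2 libraries held identical counts. Sheep p-values measure the spread between libraries, several of which share an animal; rat ones measure that between animals.

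All 9 members are named, with the 3 genes most correlated to each and, per list, at most 2 called genes per direction with the largest change and at least 5 CPM in the higher group, of which some are shown; a few of the genes so chosen are not reported here. Members and lists were chosen with earlier results of these data known. Sheep genes carry no positions here; 9 rat symbols matched the GRCr8 table. Intervals on counts cover counting error only.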

Additional observations from a re-analysis of the deposited data

Results flagged for a closer look

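Each of the 9 genes in each of the 10 dissections and in sperm formed a group of 5 sheep libraries. In 12 of the 96 groups not all at 0, the highest library stood apart by Dixon's criterion at the 95% level. Independent, normally distributed values meet that criterion in about 1 of 20 groups. The values here were not log-transformed, every flag was at the upper end and several came from the same library. The number flagged is therefore not set against that rate. Values are CPM, with the next highest library of the group in brackets.

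Sheep 694 gave 5 of the brain values. FEZF2 was at 22.8 in its frontal cortex (9.83) and at 0.666 in its basal ganglia (0.288). FOXP2 was at 10.2 in frontal cortex (4.27) and at 19.3 in pons (5.11), and BCL11B at 6.82 in pons (2.43). Without this sheep FOXP2 was not called against pons (-0.64, edgeR adjusted p = 0.24).

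Sheep 688 gave 4. The library labelled entorhinal cortex, whose nearest profile was motor cortex, held 84.6 of TBR1 (23.8) and 12.3 of FOXP2 (3.56). NEUROD2 was at 2.77 in its basal ganglia (0.705), the library with the most SLC17A7 of the 5, and NEUROD6 at 67.1 in its motor cortex (39.8).

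In the visual cortex of sheep 687 NEUROD2 was at 58.3 (34.2), and in the frontal cortex of sheep 690 LMO4 was at 336 (250.3). In the sperm of sheep 694 TBR1 was at 1.76 counts per 1000000 (0.146). Causes were not tested.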

How the results depend on the processing

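Of 585 recomputed log2 fold changes of the 9 genes against the 5 other dissections (45 values), 552 kept direction and side of the threshold, 14 lost the call, 12 gained it and 7 changed sign. The signs that changed were of uncalled values: against entorhinal cortex RORB at 0.27 without the 6 libraries nearest another class, NEUROD6 (range without 1 sheep -0.38 to 0.0523, positive without 699) and FOXP2 (-0.99 to 0.42, positive without 688), and against hippocampus RORB at 0.064 without the 6 libraries (range without 1 sheep -0.478 to 0.0355) and NEUROD6 (-0.723 to 0.0592). Members called against entorhinal cortex numbered 1, but 2 with sheep as replicate block, 3 with DESeq2, 2 without the motor cortex library of sheep 687, 0 without the 6 libraries and 1 to 3 without 1 sheep. Against hippocampus they were 5, and 3 to 5 without 1 sheep. The replicate block changed no other call of the 9 genes than CUX2 against entorhinal cortex and NEUROD2 against hippocampus. Among neocortical areas none of 89 alternatives called a member.

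Over all genes, the entorhinal count of 1170 became 1950 without the motor cortex library of sheep 687, 478 without the 6 libraries and 343 to 2099 without 1 sheep, and the hippocampal count of 4336 became 2521 to 4169. A call that also asked for a log2 change of 1 or more in size left 644 genes for entorhinal cortex, 1572 for hippocampus, 2418 for basal ganglia, 6075 for cerebellum, 4631 for pons and 12 for the rat sexes; at the usual threshold and with the oligodendrocyte covariate, 11060 genes against pons became 3758 (2357 with the size limit). For motor cortex the 35 genes became 1 with the replicate block, 124 with no low-count filter, 124 with DESeq2, 108 in the fit on all 50 libraries, 0 with the covariate, 0 without the library of sheep 687, with or without the block, and 0 to 170 without 1 sheep. For posterior parietal cortex 0 genes became 133 with the block, 347 with the block and without that library, 440 with DESeq2, 1 in the fit on all 50 libraries and 0 to 1 without 1 sheep. Frontal cortex had 1 with DESeq2 and 1 in the fit on all 50, visual cortex 1 without that library and 1 with the block as well, and prefrontal cortex 0 to 3 without 1 sheep. Any difference among areas was called for 3 genes with the block, 244 with DESeq2, 4 in the fit on all 50 libraries and 0 to 4 without 1 sheep. The rat sexes gave 37, or 74 without the 2 rRNA-rich libraries and 153 with DESeq2. The frontal LMO4 difference came to 0.0737 relative to SLC17A7. The left-out libraries, and the fits with the block and without that library, were chosen after seeing the data. The causes were not tested.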

Other observations

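Interneuron markers, which mark the inhibitory neurons among which projection neurons lie, were compared by the same edgeR test. Of 8 listed, 7 were in the sheep table. In neocortex 4 were higher than in hippocampus, 6 higher than in pons, 4 higher and 1 lower than in cerebellum, 3 higher and 2 lower than in basal ganglia and 1 higher than in entorhinal cortex. Of all genes, 20.5%, 52.3%, 59%, 27.5% and 5.53% were called in these comparisons, so the count in cerebellum is near the background. VIP, the gene most like TBR1 over the dissections, averaged 41.5 CPM ± 14.2 (SD, n = 25) in neocortex, 16.8 ± 5.58 (SD, n = 5) in entorhinal cortex and 10.9 ± 4.93 (SD, n = 5) in hippocampus. PVALB, which encodes the calcium buffer of fast-spiking interneurons, averaged 34.7 CPM ± 25.7 (SD, n = 25) in neocortex, 3.88 ± 1.87 (SD, n = 5) in hippocampus and 103 ± 16.7 (SD, n = 5) in cerebellum, where it was the 1 lower in neocortex.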
